A study of Mus musculus with 11 samples.

Results

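The 6 simple epithelial keratins Krt7, Krt8, Krt18, Krt19, Krt20 and Krt23 were described in 11 mouse rectal mucosa samples, each from its own animal and array. They were taken as the transcript clusters (the probe sets that read 1 gene each) whose annotated gene symbol was exactly one of these names, which gave 6 genes of 19944 measured, each read by 1 transcript cluster. RNA was measured on Affymetrix Mouse Gene 1.0 ST arrays, whose probes are spread along the transcript, and levels are on the log2 scale, so that a difference of 1 is a doubling. The arrays labelled mutant tamoxifen came from 4 α6ΔIEC-TAM mutant mice given tamoxifen, which is meant to delete the integrin gene Itga6 in intestinal epithelial cells. The mutant NaCl group held 4 mice of the same genotype gavaged with NaCl instead, and the control tamoxifen group 3 wild-type mice that received the drug. All were 10 weeks old, were gavaged from the age of 8 weeks (2 doses within 5 days, for tamoxifen at 10 mg/day), and were killed for analysis 15 days after gavage began. The male animals were 1 of 4, 1 of 4 and 2 of 3 in these groups. The promoter that drives the deletion is not given in the sources used here.

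Keratins are the intermediate filaments of epithelial cells. Each filament is built from pairs of a type II and a type I chain, so that Krt7 and Krt8, which are type II, assemble with Krt18, Krt19, Krt20 or Krt23, which are type I. In the gut they give the cell its mechanical strength, and mice that lack Krt8 develop colitis and a thickened colonic epithelium. At the base of the cell, keratin filaments are tied through plectin to hemidesmosomes, the junctions that hold integrin α6β4.

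The first letters of these genes are shown because Krt8 and Krt18 form the main filament pair of simple epithelia, and because Krt7 and Krt20 had the largest differences of the 5 brightly read members. Krt7, Krt8 and Krt18 lie on chromosome 15, and Krt19, Krt20 and Krt23 on chromosome 11. RefSeq promoter windows of the assembly GRCm38.p6, from 250 bases before the start of the gene to 50 bases after it, matched 5 of the 6 members, all except Krt19. They are printed 5′ to 3′ on the gene's own strand, at chr15:101412153-101412452 for Krt7 (plus strand), chr15:102004293-102004592 for Krt8 (minus strand), chr15:102027966-102028265 for Krt18 (plus strand) and chr11:99438104-99438403 for Krt20 (minus strand). Capitals mark matches, on either strand, to a TATA box (TATAAA), an AP-1 site (TGANTCA), a GC box (GGGCGG) or a CDX site (TTTATG).
Krt7: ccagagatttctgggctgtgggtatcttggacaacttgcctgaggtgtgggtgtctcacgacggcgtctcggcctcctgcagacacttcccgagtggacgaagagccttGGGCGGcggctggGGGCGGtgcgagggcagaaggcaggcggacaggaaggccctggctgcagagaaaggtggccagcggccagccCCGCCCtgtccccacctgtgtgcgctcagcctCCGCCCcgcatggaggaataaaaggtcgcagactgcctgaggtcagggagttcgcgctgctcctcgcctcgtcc
Krt8: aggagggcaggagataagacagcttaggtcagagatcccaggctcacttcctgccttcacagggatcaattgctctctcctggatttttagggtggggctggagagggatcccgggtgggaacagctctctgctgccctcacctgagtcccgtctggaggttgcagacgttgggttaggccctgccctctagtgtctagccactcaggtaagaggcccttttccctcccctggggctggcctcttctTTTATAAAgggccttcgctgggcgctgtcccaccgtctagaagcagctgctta
Krt18: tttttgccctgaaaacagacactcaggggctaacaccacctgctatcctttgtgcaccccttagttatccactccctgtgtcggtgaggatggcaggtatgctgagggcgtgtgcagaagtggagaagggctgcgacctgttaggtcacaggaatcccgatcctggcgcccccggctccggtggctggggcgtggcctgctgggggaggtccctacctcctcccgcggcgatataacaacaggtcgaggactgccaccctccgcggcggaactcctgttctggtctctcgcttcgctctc
Krt20: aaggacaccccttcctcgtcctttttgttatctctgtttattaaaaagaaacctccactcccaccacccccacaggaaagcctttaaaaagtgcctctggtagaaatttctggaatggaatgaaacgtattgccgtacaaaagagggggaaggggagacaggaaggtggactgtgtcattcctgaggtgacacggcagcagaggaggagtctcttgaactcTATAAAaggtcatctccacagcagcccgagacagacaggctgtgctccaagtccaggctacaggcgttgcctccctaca

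The Krt7 window held 4 GC boxes, which begin 141, 128, 56 and 24 bases before the start, and a GC box is in 35.7% of all 32851 RefSeq promoter windows. The Krt20 window held 1 TATA box, beginning 29 bases before the start, and the Krt8 window 2 overlapping matches to it on opposite strands, beginning 3 and 1 bases before the start. A TATA box is in 13.6% of all windows. The Krt18 window held none of the 4 motifs. Krt23, whose window is not printed, held 1 CDX site beginning 32 bases before the start, a motif in 11.9% of all windows, and no member's window held an AP-1 site, which is in 7.81%. These matches describe letters, and none was tested for binding. No window held matches to more than 1 of the 4 motifs, so no match overlapped one to another motif.

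The arrays were alike in scale, with medians over all transcript clusters between 7.295 and 7.35 and correlations across clusters of at least 0.984. Itga6, the targeted gene, went against its label: it read 11.75, 11.93, 11.84 and 11.77 in the arrays labelled mutant tamoxifen, 11.39, 11.28, 11.49 and 11.47 in mutant NaCl and 11.15, 11.52 and 11.49 in control tamoxifen (1.34-fold higher than in control tamoxifen, limma, adjusted p = 0.00949). The probes of its cluster may lie outside the deleted part, and other cells of the mucosa express it, so this value checks nothing about the deletion, and every direction below follows the labels. None of the 16 general epithelial markers listed had a mean level below that of the median gene. Markers of squamous epithelium, which lines the anal canal, differed widely between arrays within each group, with mean levels of 7.76 to 9.34 in mutant tamoxifen, 8.08 to 9.34 in mutant NaCl and 6.80 to 9.28 in control tamoxifen.

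Against the control mice given the same drug, 5 of the 6 keratins rose in the arrays labelled mutant tamoxifen and 0 fell, while 12.9% of all genes rose and 11.8% fell (limma with a term for sex, threshold 0.05 on p adjusted over all genes). The increases were 2.19-fold for Krt7, 1.79-fold for Krt23, 1.63-fold for Krt20, 1.3-fold for Krt18 and 1.12-fold for Krt19. Krt8 read 1.07-fold higher and did not pass. Against the mutant mice given NaCl, all 6 rose, while 12.5% of all genes rose and 10.7% fell. In both comparisons the 4 mutant tamoxifen values lay above every value of the other group for 6 of 6 members. That was true of 17.3% of all genes against control tamoxifen and of 14.2% against mutant NaCl. The 2 comparisons share the mutant tamoxifen arrays. The median of the 6 log2 differences was 0.54 against control tamoxifen and 0.43 against mutant NaCl, beside medians over all genes of -0.0226 and -0.00855. Replicate numbers only name an array and pair no mice across groups. Without mutant_tam replicate 3, the male of its group, or without control_tam replicate 1, 3 members rose against control tamoxifen. Without mutant_tam replicate 3 or mutant_nacl replicate 3, 3 rose against mutant NaCl.

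**Figure D1:**
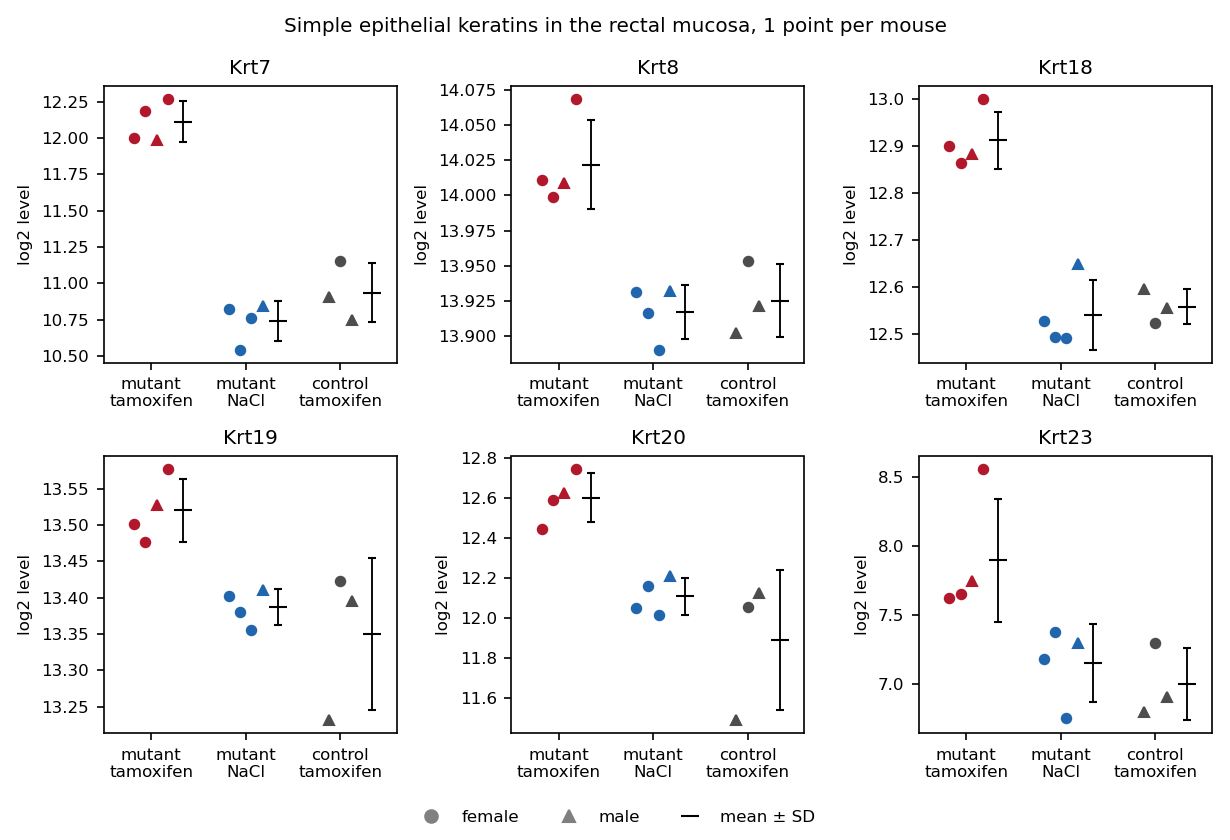
Log2 level of each of the 6 keratins (vertical axis, a separate scale for each gene) in the mutant tamoxifen, mutant NaCl and control tamoxifen groups, with 1 point per mouse, circles for females, triangles for males, and bars for the mean ± SD. For every member the 4 mutant tamoxifen points lie above all points of both other groups, by as little as 0.046 for Krt8 against control tamoxifen and as much as 1.14 for Krt7 against mutant NaCl.

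Among the type II chains, Krt7, a keratin of ducts and glands and of the urothelium, moved most. The 4 arrays labelled mutant tamoxifen read 12.003, 12.19, 11.99 and 12.27 on the log2 scale, against 10.82, 10.54, 10.76 and 10.84 in mutant NaCl and 10.91, 11.16 and 10.75 in control tamoxifen. The lowest mutant tamoxifen value stood 0.83 above the highest control value and 1.14 above the highest mutant NaCl value. The difference was 1.13 against control tamoxifen (limma, SE 0.11, adjusted p = 0.000158) and 1.37 against mutant NaCl (limma, SE 0.0958, adjusted p = 1.69e-05, 2.58-fold). Differences of this kind come from a fit with sex as a term, so they can depart from the difference of the group means. The group means of Krt7 were 12.11 ± 0.139 in mutant tamoxifen (SD, n = 4), 10.74 ± 0.138 in mutant NaCl (SD, n = 4) and 10.94 ± 0.206 in control tamoxifen (SD, n = 3).

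Krt8, the type II chain present in all simple epithelia, had the highest signal of the 6 and the smallest change. Its log2 levels were 14.01, 13.999, 14.01 and 14.07 in mutant tamoxifen, 13.93, 13.92, 13.89 and 13.93 in mutant NaCl and 13.90, 13.95 and 13.92 in control tamoxifen. The groups did not overlap, but their gap was 0.046 against control tamoxifen. Krt8 passed against mutant NaCl (limma, log2 difference 0.105, SE 0.0269, adjusted p = 0.0174) and missed the threshold against control tamoxifen (limma, adjusted p = 0.0529), where its log2 difference was 0.092 with a 95% confidence interval of 0.023 to 0.16. The highest Krt8 value lay 0.268 below the lowest of the arrays' maxima, which ran from 14.34 to 14.42. The part that nearness to the top of the signal range has in this small difference was not tested.

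Krt18, the usual type I partner of Krt8, averaged 12.91 ± 0.0608 in mutant tamoxifen (SD, n = 4), 12.54 ± 0.0739 in mutant NaCl (SD, n = 4) and 12.56 ± 0.0366 in control tamoxifen (SD, n = 3). It rose by 0.376 against control tamoxifen (limma, SE 0.0493, adjusted p = 0.000722) and by 0.371 against mutant NaCl (limma, SE 0.0428, adjusted p = 0.000293). Its mutant tamoxifen arrays read 12.90, 12.86, 12.88 and 13.00 on the log2 scale. The values were 12.53, 12.49, 12.49 and 12.65 in mutant NaCl and 12.60, 12.52 and 12.56 in control tamoxifen. The values of both other groups were intermingled, and all mutant tamoxifen values stood at least 0.215 above them.

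Krt19, the type I chain without a tail domain, had small differences. Its mean level was at the 99.9th percentile of all genes, and the part of nearness to the top of the signal range was not tested here either. It read 13.50, 13.48, 13.53 and 13.58 in mutant tamoxifen, 13.40, 13.38, 13.36 and 13.41 in mutant NaCl and 13.23, 13.42 and 13.40 in control tamoxifen. The differences of 0.162 and 0.134 were just past the threshold (limma, SE 0.0502 and 0.0435, adjusted p = 0.0378 against control tamoxifen and 0.0485 against mutant NaCl). These calls were lost in 14 and 12 of 22 other settings. Over those 22 settings the differences ran from 0.095 to 0.243 against control tamoxifen and from 0.057 to 0.208 against mutant NaCl. Control_tam replicate 1 was the lowest array for Krt19, and without it the difference was 0.113 (adjusted p = 0.066).

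Krt20, a type I chain of differentiated gut epithelium, read 12.45, 12.59, 12.63 and 12.75 in mutant tamoxifen, 12.05, 12.16, 12.02 and 12.21 in mutant NaCl and 11.49, 12.05 and 12.13 in control tamoxifen. It rose by 0.704 against control tamoxifen (limma, SE 0.144, adjusted p = 0.00601) and by 0.492 against mutant NaCl (limma, SE 0.125, adjusted p = 0.0167, 1.41-fold). Control_tam replicate 1 was again the lowest array of its group. Without that array Krt20 remained past the threshold with a difference of 0.531 (adjusted p = 0.0021).

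Krt23, a type I chain known from stressed bile duct epithelium of mice, had the lowest signal of the 6, with a mean at the 41.7th percentile of all genes. Its spread was the widest of the 6 within mutant tamoxifen and mutant NaCl (SD 0.446 and 0.281), while Krt20 varied more in control tamoxifen (SD 0.35, against 0.264 for Krt23). Its log2 levels were 7.63, 7.65, 7.75 and 8.56 in mutant tamoxifen, 7.18, 7.38, 6.75 and 7.298 in mutant NaCl and 6.79, 7.297 and 6.91 in control tamoxifen. It rose by 0.84 against control tamoxifen (limma, SE 0.245, adjusted p = 0.0301) and by 0.745 against mutant NaCl (limma, SE 0.213, adjusted p = 0.0283, 1.68-fold). Without mutant_tam replicate 4, which stood above the rest of its group, the differences were 0.663 and 0.527, and both stayed past the threshold (adjusted p = 0.0239 and 0.0421). The call against control tamoxifen was lost without any single control array (limma, adjusted p = 0.0534 to 0.0813) and without mutant_tam replicate 3 (adjusted p = 0.0977). The call against mutant NaCl was lost without mutant_tam replicate 3, mutant_nacl replicate 1 or mutant_nacl replicate 3, and in female arrays alone.

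**Figure D2:**
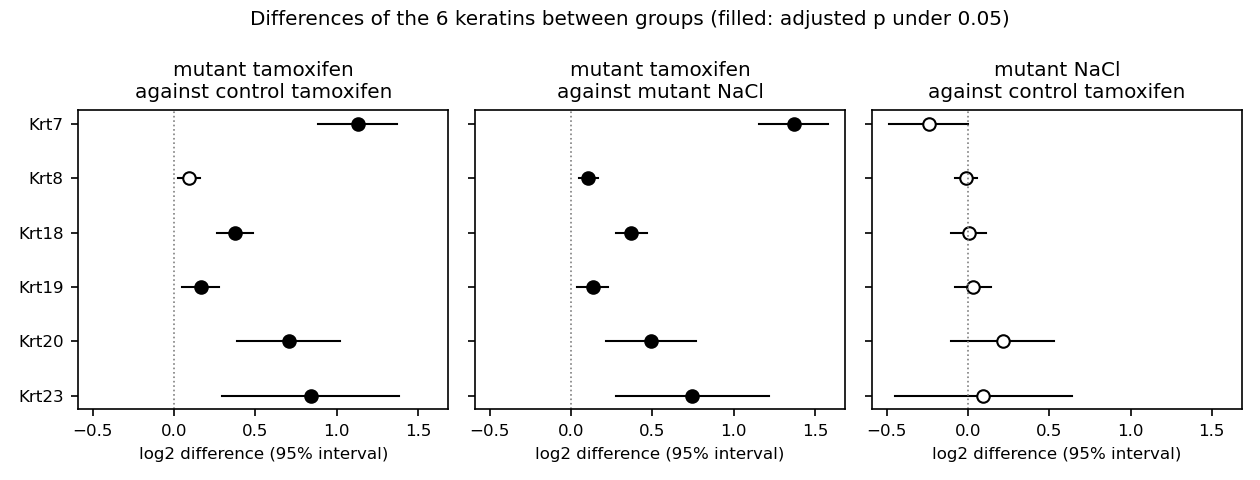
Log2 differences of the 6 keratins (horizontal axis) with 95% confidence intervals from the limma fit, in 3 comparisons, where filled points passed the threshold on adjusted p. In both comparisons of mutant tamoxifen all points lie right of 0, from 0.092 for Krt8 to 1.37 for Krt7, and in mutant NaCl against control tamoxifen every interval includes 0.

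The uninduced mutant mice were set against the control mice to see what differed without the combination of genotype and drug. These groups differ in both genotype and drug, and no wild-type mice were given NaCl. An effect of genotype and an effect of the drug therefore cannot be told apart here, and opposite effects could offset each other. None of the 6 keratins passed, with 0 calls at adjusted p and 0 at an unadjusted p under 0.05, beside 0% and 8.15% of all genes (limma). The differences ran from -0.242 for Krt7 (95% confidence interval -0.486 to 0.002, adjusted p = 0.619) to 0.213 for Krt20 (interval -0.105 to 0.531, adjusted p = 0.718). For Krt8, Krt18 and Krt19 the intervals were narrow, -0.082 to 0.055, -0.104 to 0.114 and -0.082 to 0.14. For Krt23 the interval ran from -0.448 to 0.637. No member differed between the sexes past the threshold, and the largest difference of male from female mice was -0.139, for Krt23 (adjusted p = 0.948).

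Some arrays had the highest or lowest value of their group for most of the 6 keratins. The share of all genes that were highest or lowest on these arrays was not counted, so this may not be particular to keratins. Mutant_tam replicate 4 had the highest value of its group for 6 of 6 members. Mutant_nacl replicate 4 had it for 5 of 6, and mutant_nacl replicate 3 had the lowest for 5 of 6. Some of these places were near ties. Krt8 read 13.932 in mutant_nacl replicate 4 and 13.931 in replicate 1, and Krt18 read 12.493 in mutant_nacl replicate 3 and 12.494 in replicate 2. In the control group replicate 1 was the lowest for 4 of 6, the exceptions being Krt7 and Krt18. Of these arrays, only control_tam replicate 1 had the same place for the mean of the general epithelial markers, the lowest of its group (11.40). Mutant_tam replicate 4 read 11.48 there, within the 11.45 to 11.57 of its group. In mutant NaCl the ends were reversed, with replicate 4 lowest (11.38) and replicate 3 highest (11.44).

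Because Krt8 pairs with Krt18, and Krt7 can stand in for Krt8 as the type II chain of a filament, the change of each was set against that of Krt8 within an array. The size of such a log2 difference between genes has no meaning on these arrays, as probes differ in brightness, but its shift between groups sets the changes of the 2 genes against each other. Krt8 lies near the top of the signal range, and a compressed Krt8 difference would enlarge these shifts, which was not tested. Krt18 minus Krt8 was -1.11, -1.14, -1.13 and -1.07 in mutant tamoxifen, against -1.40, -1.42, -1.40 and -1.28 in mutant NaCl and -1.30, -1.43 and -1.36 in control tamoxifen. It was thus higher in all 4 mutant tamoxifen arrays than in all others, by 0.266 against mutant NaCl (exact two-sided permutation test, p = 0.0286) and by 0.257 against control tamoxifen (exact p = 0.0571). Krt7 minus Krt8 was -2.01, -1.81, -2.02 and -1.80 in mutant tamoxifen, -3.11, -3.37, -3.13 and -3.09 in mutant NaCl and -2.99, -2.80 and -3.17 in control tamoxifen. Its shifts were 1.27 against mutant NaCl (exact p = 0.0286) and 1.08 against control tamoxifen (exact p = 0.0571). These p-values are the smallest that 4 against 4 and 4 against 3 arrays can give, and adjusted over the 6 tests made they were 0.0857, past no threshold of 0.05. Mutant NaCl and control tamoxifen differed by -0.009 for Krt18 minus Krt8 (exact p = 0.8) and by -0.187 for Krt7 minus Krt8 (exact p = 0.229).

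**Figure D3:**
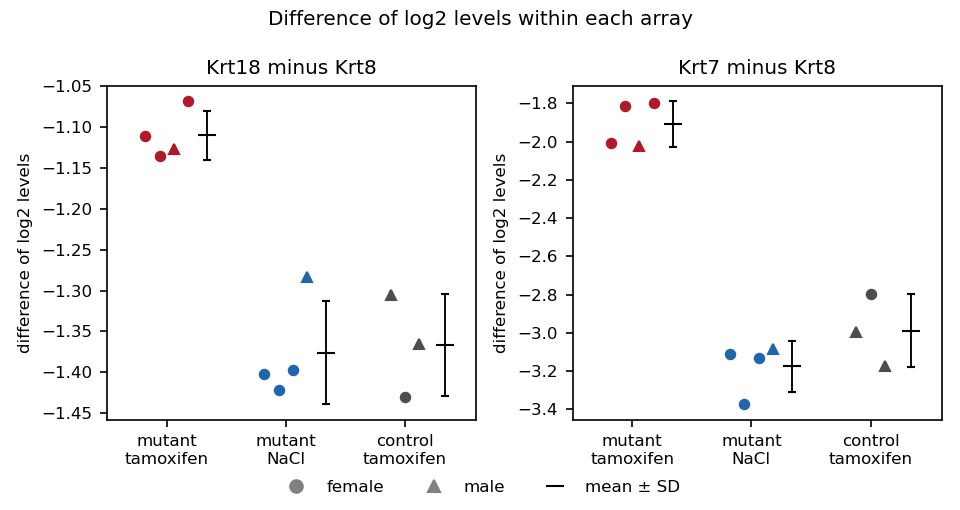
Difference of log2 levels within each array for Krt18 minus Krt8 and Krt7 minus Krt8 (vertical axis), with 1 point per mouse by group and bars for the mean ± SD. The 4 mutant tamoxifen points lie between -1.14 and -1.07 for the first pair and between -2.02 and -1.80 for the second, above every point of the other groups.

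Few of the other keratin genes passed the threshold. Of 46 other keratin genes measured, 2 rose and 0 fell against control tamoxifen, and 2 rose and 2 fell against mutant NaCl (medians 0.015 and 0.013). Of the 46, 34 had mean levels below that of the median gene, and some brighter ones had wide errors. A gene that did not pass is therefore not shown to be unchanged. The pair that rose in both comparisons was Krt36 and Krt84, a type I and a type II keratin of the hair type. Krt36 read 8.60, 8.31, 8.39 and 9.11 in mutant tamoxifen, 7.19, 7.11, 7.34 and 7.38 in mutant NaCl and 7.25, 7.56 and 7.34 in control tamoxifen. Its increase was 2.24-fold against control tamoxifen and 2.54-fold against mutant NaCl (limma, adjusted p = 0.00133 and 0.000256). Krt84 was 2.08-fold and 2.38-fold higher (limma, adjusted p = 0.0121 and 0.00262). Krt222 and Krt40 had log2 differences of -0.143 and -0.107 against control tamoxifen and did not pass (limma, adjusted p = 0.0532 and 0.0831). The 2 that fell against mutant NaCl were Krt31 and Krt33a, hair keratins with log2 differences of -0.461 and -0.794. Of 17 keratins listed for stratified and hair-type epithelia, Krt36 and Krt84 were the 2 that rose, and none fell (median differences 0.463 and 0.098). Krt13 and Krt14, keratins of the upper and basal layers of squamous epithelium, had log2 differences of 1.30 and 1.25 against control tamoxifen with wide errors (SE 0.548 and 0.54) and did not pass (adjusted p = 0.111 and 0.119). For them the sex term mattered, as the plain group means were 11.43 in mutant tamoxifen and 9.40 in control tamoxifen for Krt13, and 10.61 in mutant tamoxifen and 8.84 in control tamoxifen for Krt14.

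The RNA of genes whose proteins bind or anchor keratin filaments moved in both directions. Of 17 such genes measured, 5 rose and 4 fell against control tamoxifen, and 6 rose and 3 fell against mutant NaCl (medians 0.148 and 0.137). Over all genes, 12.9% rose and 11.8% fell against control tamoxifen, and 12.5% rose and 10.7% fell against mutant NaCl. Sfn, the 14-3-3 protein stratifin, read 12.21, 12.08, 12.26 and 12.41 in mutant tamoxifen, 11.30, 11.18, 11.48 and 11.49 in mutant NaCl and 10.37, 11.50 and 11.05 in control tamoxifen. It was 2.29-fold higher than in control tamoxifen (limma, adjusted p = 0.00295) and 1.84-fold higher than in mutant NaCl (adjusted p = 0.00661). Plec, which encodes plectin, rose 1.43-fold and 1.39-fold (limma, adjusted p = 0.00235 and 0.00159), and Pkp3, the desmosomal plaque protein plakophilin 3, 1.46-fold and 1.36-fold (limma, adjusted p = 0.0011 and 0.00128). Eppk1, epiplakin, which binds keratin filaments, fell, with log2 differences of -0.643 and -0.742 (limma, adjusted p = 0.000676 and 0.000114).

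Genes of intermediate filaments outside the keratin family were lower more often than higher. Against control tamoxifen 1 of 14 was up and 5 were down, and against mutant NaCl 2 were up and 4 down. The member that rose with the smallest p was Lmnb1, a lamin of the nuclear envelope (log2 differences 0.949 and 0.669, limma, adjusted p = 0.000396 and 0.000954). Those that fell included the muscle filament genes Synm (-0.907 and -0.877) and Des (-0.489 and -0.406), and Prph, a filament of peripheral neurons (-0.409 and -0.268). All 12 smooth muscle markers fell in the same arrays, with mean levels of 11.29 to 11.44 in mutant tamoxifen, 11.75 to 12.04 in mutant NaCl and 11.84 to 12.01 in control tamoxifen. In whole mucosa, fewer cells of a type and less RNA per cell cannot be told apart.

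Markers of the cells that express keratins were read beside them. Of 16 general epithelial markers such as Epcam and Cdh1, 1 rose and 1 fell against control tamoxifen (median 0.042), and 4 rose and 1 fell against mutant NaCl (median -0.002). Their mean level was 11.45 to 11.57 in mutant tamoxifen, 11.38 to 11.44 in mutant NaCl and 11.40 to 11.46 in control tamoxifen. Single markers differed by -0.259 to 0.62 against control tamoxifen and by -0.16 to 0.834 against mutant NaCl, while the medians lay near 0. How far single markers shift this mean was not tested. With this mean subtracted from each array, Krt7, Krt18, Krt20 and Krt23 remained past the threshold in both comparisons. Their differences from control tamoxifen were then 1.06, 0.308, 0.637 and 0.772. Krt8 and Krt19 did not pass in either (limma, 0.024 and 0.095 against control tamoxifen, adjusted p = 0.696 and 0.184, and 0.029 and 0.057 against mutant NaCl, adjusted p = 0.586 and 0.342).

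**Figure D4:**
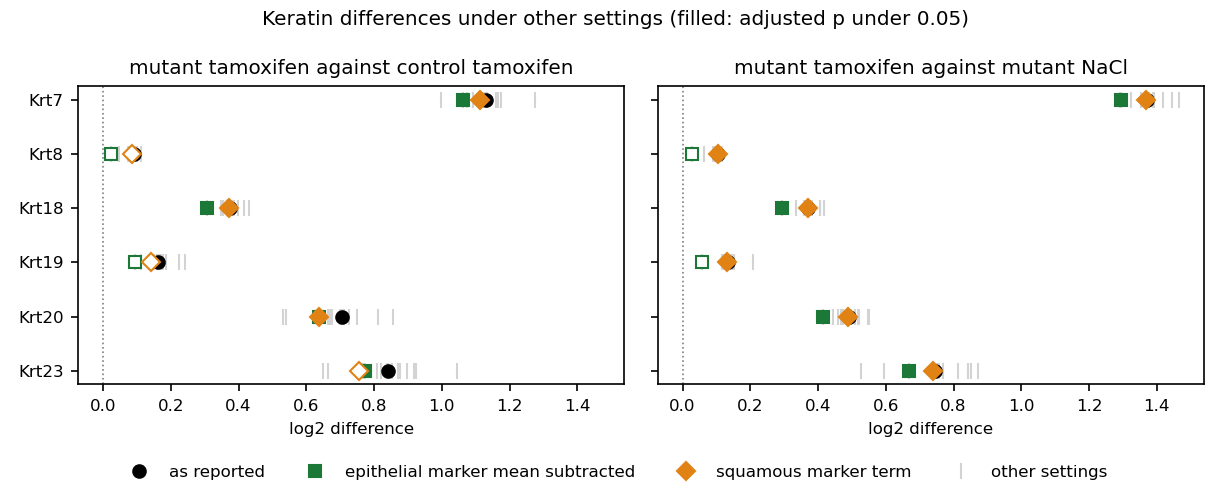
Log2 differences of the 6 keratins (horizontal axis) as reported (circles), with the mean of the general epithelial markers subtracted (squares), with a term for the squamous markers (diamonds) and under all other settings (grey ticks), filled where adjusted p is under 0.05. Krt7 lies between 0.997 and 1.47 and Krt18 between 0.294 and 0.431 over both comparisons, and the squares of Krt8 and Krt19 are open.

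Krt20 rose, while most of the listed surface colonocyte markers fell. Of 14 surface colonocyte markers, 9 fell and 2 rose against control tamoxifen (median -0.53), and 8 fell and 2 rose against mutant NaCl (median -0.389). Slc26a3, the apical chloride-bicarbonate exchanger, fell by 1.67 and 1.54 on the log2 scale and Car4, a carbonic anhydrase, by 1.24 and 1.27. The mean level of the 14 surface colonocyte markers was 10.88 to 11.12 in mutant tamoxifen, 11.45 to 11.54 in mutant NaCl and 11.55 to 11.77 in control tamoxifen. Goblet cell markers were split, with 5 of 11 higher and 3 lower against control tamoxifen and 6 higher and 2 lower against mutant NaCl. Galnt12, a glycosyltransferase, and Spink4 were 1.64-fold and 1.61-fold higher than in control tamoxifen, and Tff3, the trefoil peptide of goblet cells, had a log2 difference of -0.602. Among tuft cell markers 1 of 9, Avil, rose in both comparisons, and 1, Ltc4s, fell against control tamoxifen.

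Markers of other keratin-bearing tissues were also read. The urothelium list, with uroplakins that mark the cells where Krt7 and Krt20 are also found, read 7.21 to 7.31 in mutant tamoxifen, 7.29 to 7.42 in mutant NaCl and 7.35 to 7.40 in control tamoxifen. In it 0 of 6 rose in either comparison, 1 fell against control tamoxifen and 2 against mutant NaCl, and 5 of 6 had mean levels below the median gene. The 1 that fell against control tamoxifen was Sncg, which is not a uroplakin (log2 difference -0.362, limma, adjusted p = 0.014). Against mutant NaCl the 2 were Sncg and the uroplakin gene Upk1b (log2 differences -0.326 and -0.338). Of 6 mesothelial markers, all below the median gene, Msln rose in both comparisons (log2 differences 0.556 and 0.616, adjusted p = 0.0312 and 0.0106) and Gpm6a fell. Of 14 squamous markers, Ly6d and Sprr1a rose against control tamoxifen (3.22-fold and 4.61-fold, adjusted p = 0.0235 and 0.0295), and 0 passed against mutant NaCl. The fold of Sprr1a also depends on the sex term, with plain group means of 12.29 in mutant tamoxifen and 9.62 in control tamoxifen. With the squamous mean as a term in the fit, Krt19 and Krt23 no longer passed against control tamoxifen (0.141 and 0.754, adjusted p = 0.0816 and 0.0604), and all 6 keratins passed against mutant NaCl. Neutrophil markers rose in the same arrays, 10 of 11 in both comparisons, with mean levels of 7.29 to 7.76 in mutant tamoxifen, 6.42 to 6.63 in mutant NaCl and 6.37 to 6.69 in control tamoxifen. The part that these other cells have in the keratin levels was not tested beyond these fits.

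**Figure D5:**
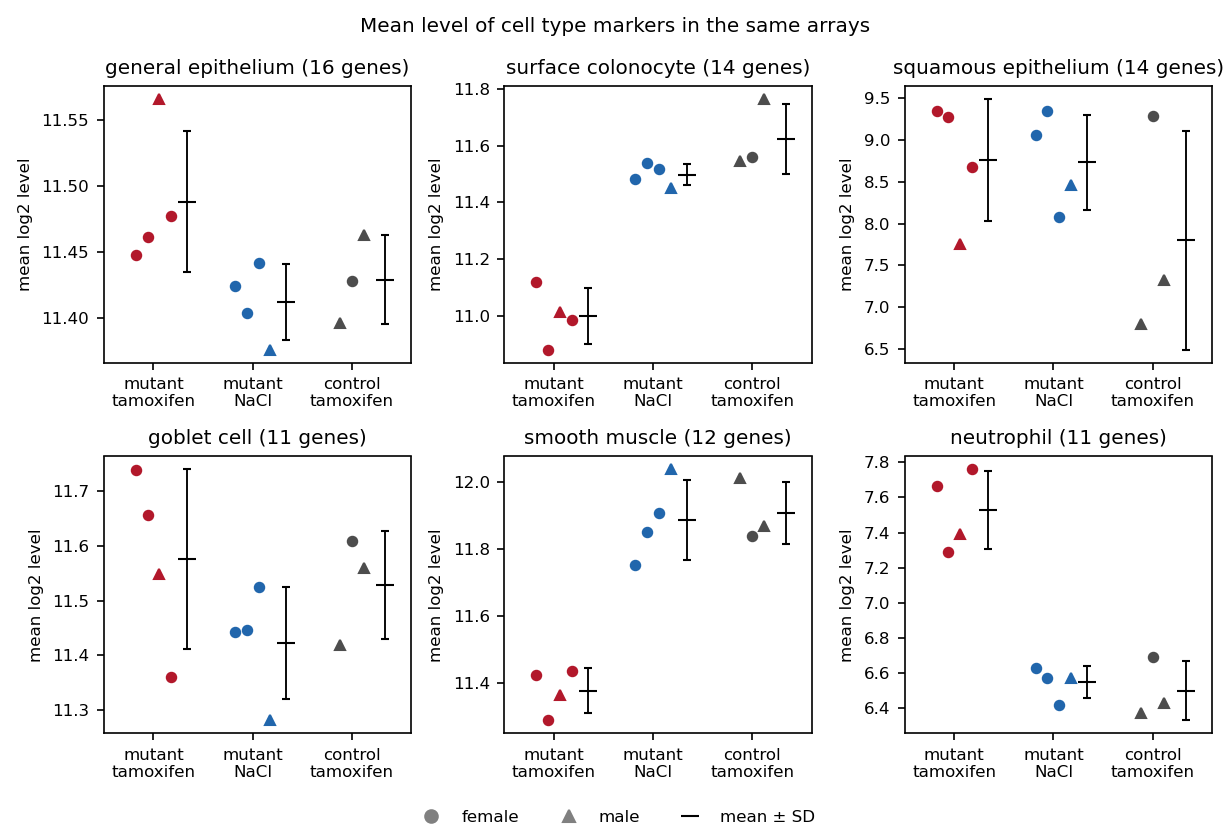
Mean log2 level of the measured genes of 6 marker lists (vertical axis, a separate scale for each list) in the 3 groups, with 1 point per mouse and bars for the mean ± SD. Smooth muscle and surface colonocyte means lie lower, and neutrophil means higher, in all 4 mutant tamoxifen arrays than in all others, while squamous means overlap widely, from 6.80 to 9.34 over all arrays.

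The genes with the profiles most like each keratin over the 11 arrays were found by the root mean square distance between log2 levels centred on their own mean, among genes at or above the median level. Nearest to Krt7, whose own root mean square deviation was 0.638, were Pgap1, which remodels lipid anchors of surface proteins, and Galnt3, which starts O-glycan chains (distances 0.172 and 0.174). Nearest to Krt18 (own deviation 0.183) were Srp9, a subunit of the signal recognition particle, and Atg101, an autophagy factor (0.0408 and 0.0449). Nearest to Krt20 (0.34) were the nuclear pore gene Nup93 and Tmem97 (0.065 and 0.0738). Krt23 (0.494) was nearest to Spns2, a sphingosine-1-phosphate transporter, and Prrg4 (0.174 and 0.179). Krt19 (0.0896) was nearest to Ywhaz, a 14-3-3 protein that is also on the list of keratin-binding proteins, and Cmpk1, a nucleotide kinase (0.0255 and 0.0287). The nearly flat Krt8 (0.0538) was nearest to the G protein gene Gnb1 and the kinase gene Csnk1d (0.0239 and 0.0277). No other keratin was among these 12 genes, but this says nothing about whether keratins share the shape of a profile. The distance also counts the size of a change, in which the members differed widely. The search also left out genes below the median level, among them Krt23 and 34 of the 46 other keratins.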

How the data were processed

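RNA of the rectal mucosa of 11 mice was read on 1 array each. The deposited values are log2 levels made by the authors with RMA in Expression Console 1.1 from images read with Command Console 2.0, per the labels and the submitters' processing notes, which also name Partek without a role. RMA includes quantile normalisation between arrays, which fixes the overall scale. The genome build is not given in the sources used here. Of 35556 transcript clusters, 21797 had 1 gene symbol in the platform annotation, 1613 several, and 12146 were not listed. The cluster with the highest mean was kept for each gene, which left 19944 genes.

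Groups came from the genotype and treatment labels. All arrays were fitted with group and sex in limma 3.58.1 (R 4.3.3, eBayes with trend), and p-values were adjusted by Benjamini-Hochberg over all genes, with a threshold of 0.05. The code was tested on simulated data. Gene pairs were compared by exact two-sided permutation tests. The 6 members, the 12 gene lists and the tests were chosen with earlier results of these data known. Genes were named from the members, Itga6 and the 4 genes of each list with the smallest p against control tamoxifen. The rule also took the 4 other keratins with the smallest p and the 2 nearest profiles of each member. The profile search excluded predicted, immunoglobulin, T cell receptor, olfactory, vomeronasal and small RNA genes. Krt31, Krt33a and other genes outside this rule were named after their values were seen. Alternatives varied the sex term, arrays, filters, scaling, eBayes trend, probe summary and marker terms. Scan dates and array batches were not analysed here.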

Additional observations from a re-analysis of the deposited data

Results flagged for a closer look

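Of 168 sets of 4 arrays examined, 13 (7.74%) held a value whose gap to the nearest of the others passed Dixon's 95% limit for its group, where chance gives about 1 in 20. Among the keratins, mutant_tam replicate 4 stood high for Krt8 (14.07, others 13.999 to 14.01) and for Krt23 (8.56, others 7.63 to 7.75). Mutant_nacl replicate 2 stood low for Krt7 minus Krt8 (-3.37, others -3.13 to -3.09), and mutant_tam replicate 2 stood high for Krt84 (8.28, others 7.87 to 7.90).

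Mutant_tam replicate 3, the male of its group, stood low for Krt13 (10.26, others 11.72 to 11.95), for Sprr3 (8.91, others 10.59 to 10.87) and for the mean of the keratins of stratified and hair-type epithelia (8.2, others 9.27 to 9.35). Spink4 stood low in mutant_tam replicate 4 (12.98, others 13.23 to 13.26) and in mutant_nacl replicate 4 (12.07, others 12.43 to 12.46). Upk2 stood high in mutant_nacl replicate 2 (7.47, others 7.26 to 7.297). The remaining values were list means: tuft cells in mutant_nacl replicate 4 (7.37, others 7.49 to 7.50), urothelium in mutant_nacl replicate 1 (7.29, others at 7.42) and mesothelium in mutant_tam replicate 4 (6.68, others 6.49 to 6.51).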

How the results depend on the processing

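Krt7 and Krt18 passed the threshold in both comparisons of mutant tamoxifen under 22 of 22 other settings, and Krt20 did so in 22 against control tamoxifen and 21 against mutant NaCl, the exception being without mutant_tam replicate 3 (0.473, adjusted p = 0.0571). Krt19 passed in 8 and 10 of 22, and Krt23 in 14 and 17 of 21. Krt8 passed in 2 of 22 against control tamoxifen, without the sex term and without the lower 50% of genes, and in 19 of 22 against mutant NaCl. No difference in these comparisons changed sign. Against control tamoxifen 3 keratins passed, and not 5, in female arrays alone, where the control group is 1 mouse assumed to vary like the others, in a fit of only the arrays of the groups compared and with the squamous term, and 3 to 5 with 1 array left out. Against mutant NaCl 3 to 6 passed with 1 array left out. The cause of these losses was not tested. Calls over all genes, 4915 against control tamoxifen and 4634 against mutant NaCl, came to 1385 in female arrays alone against control tamoxifen, again with 1 control mouse, and to 2517 and 3031 there without mutant_tam replicate 3 and control_tam replicate 2. The shift of Krt18 minus Krt8 against mutant NaCl was 0.302 in female arrays alone and 0.25 to 0.297 with 1 array left out, and that of Krt7 minus Krt8 was 1.332 and 1.199 to 1.302. The smallest exact p that these smaller sets can give is 0.1 in females and 0.0571 with 7 arrays, so their p says nothing about stability. No paired analysis was possible because the labels give no replicate numbers, and those printed here are only names. Precision is limited by 3 or 4 arrays per group.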
